A study of Homo sapiens with 9 samples.

Results

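Wide EGR1 peaks were taken from a chromatin immunoprecipitation sequencing (ChIP-seq) study of BJ-hTert-B-RAF-V600E, an established line of immortalised human fibroblasts in which doxycycline switches on the oncoprotein BRAF V600E. The wide peaks were the sites on chromosomes 1 to 22 that rose above proliferating cells on induction over a stretch of at least 1000 bp and that also overlapped, by at least 1 bp, a site called in induced cells given clobetasol. This held for 1106 of the 16285 peaks of the induced list (6.79%), or 1106 of the 10098 autosomal peaks shared by both lists (11.0%). Of all 1377 wide induced autosomal peaks, 80.3% had a clobetasol peak, where 64.1% of all induced autosomal peaks did. The sites were chosen by width in the induced list and by overlap with the clobetasol list, so their widths, folds, pileups and overlaps are given as a description with no test.

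All groups carried the inducible BRAF V600E transgene. Proliferating cells received ethanol and DMSO, induced cells received doxycycline at 1000 ng/mL and DMSO, and the last group received doxycycline at 1000 ng/mL with clobetasol at 2 nM, each for 24 h. Each group had 3 libraries, which the authors pooled before peak calling, so there is 1 pool behind each value and no spread between replicates can be given. Both lists used the same proliferating pool as control. The labels repeat 1 sample name in the library names of proliferating replicates 2 and 3, so the number of distinct samples in that pool is not settled here. Sample titles also name DMSO for the clobetasol group, while its other labels name clobetasol alone beside doxycycline. The fibroblast identity could not be checked on markers, since genomic DNA was sequenced.

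EGR1 is a zinc finger transcription factor of the immediate early class, made within minutes of growth factor or RAF-MEK-ERK signalling, and it binds GC-rich DNA in promoters and enhancers. Sustained RAF signalling drives fibroblasts into senescence, a lasting arrest. Clobetasol activates the glucocorticoid receptor, which is itself a DNA-binding transcription factor and is known to dampen many signal-induced genes. In such data a peak is the whole stretch that passes the caller's threshold, and neighbouring stretches with a short gap are joined. A wide peak can thus hold several binding positions or 1 strong position with raised flanks.

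The wide peaks ran from 1000 to 4136 bp, with a median of 1239 bp (interquartile range 1106 to 1469.8). There were 251 of at least 1500 bp, 45 of at least 2000 bp and 5 of at least 3000 bp. Although they were 7.02% of the induced autosomal peaks, they held 1.48 Mb of the 8.41 Mb those peaks covered (17.6%). At the edge of the rule, the 6 shared peaks of exactly 1000 bp had folds from 3.37 to 5.45 and 60 to 245 fragments at the summit. The 9 of 999 bp just outside it had folds from 3.35 to 6.45 and 48 to 205 fragments. Both sets overlapped in fold and in fragments.

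In the induced list, the wide peaks had a median fold over proliferating cells of 4.24 (interquartile range 3.60 to 5.10), against 3.87 (3.28 to 4.68) for the 8992 narrower shared peaks. This fold is the authors', taken at the summit. The summit of a wide peak held a median of 94 fragments (72 to 136), and that of a narrower one 85 (57 to 132). The level in the proliferating pool, scaled to the induced pool, was close between the sets, with medians of 21.5 and 20.4 fragments. The medians of width, 1239 and 424 bp, were set apart by the rule.

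The summit lay in the outer 25% of the peak, on either side, at 564 of 1106 wide peaks (51.0%, 95% Wilson interval 48.1 to 53.9), against 1001 of 8992 narrower ones (11.1%, 10.5 to 11.8). Both outer parts together make up 50% of a peak, the share that even placement would give. The interval covers counting error only. The sets were split by width, which sets the room around a summit, so nothing is read from the contrast. Across the wide peaks, width followed neither fragments (Spearman rho 0.083) nor fold (rho 0.085) closely, over 1106 sites that share the same pools. The same rho between width and fold was 0.324 over the narrower shared peaks.

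With clobetasol, wide stretches were seldom called over their full length. The overlapping clobetasol peak, taken as the one with most overlapping bases, had a median width of 638 bp (427 to 957), which was a median of 49.4% of the induced width. For the narrower shared peaks it was 86.2%. A clobetasol peak of at least 1000 bp was found at 234 of 1106 wide peaks (21.2%), and one under 500 bp at 387 (35.0%). The clobetasol peak was wider than the induced one at 37 (3.35%), against 2010 of 8992 narrower peaks (22.4%). The plot of both widths shows the wide peaks mostly below the line of equal width.

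**Figure D1:**
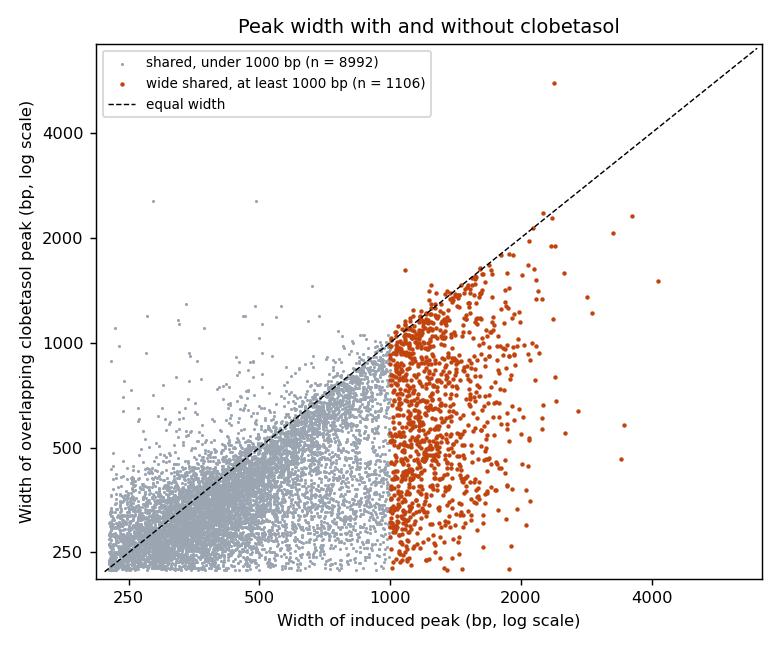
Width of each shared autosomal induced peak (x axis, bp, log scale) against the width of the clobetasol peak with most overlapping bases (y axis, bp, log scale), with the 1106 wide shared peaks in red and the 8992 narrower ones in grey. At 37 wide peaks the point lies above the dashed line of equal width.

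Clobetasol peaks together covered a median of 57.5% of a wide peak (interquartile range 38.3 to 77.2), against 83.9% (70.3 to 93.6) of a narrower one. Of the 1106 wide peaks, 136 were covered to at least 90% (12.3%), 446 to under 50% (40.3%) and 91 to under 25% (8.23%). The last count was 8 of 8992 narrower peaks. In bases, 0.849 Mb of the 1.48 Mb in wide peaks also lay in clobetasol peaks (57.5%). A base outside a clobetasol peak is known to lack a call there, not to lack EGR1, and the clobetasol list holds peaks with a −log10 q of 5.00012 or more.

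The median covered part was lower in wider classes of shared peaks. Its median was 95.9% for peaks under 300 bp, 76.5% for those of 500 to under 750 bp, 66.1% for those of 750 to under 1000 bp, 57.9% for those of 1000 to under 1500 bp and 53.5% for those of at least 2000 bp. The share of peaks with a clobetasol peak rose over the same classes, from 48.1% under 300 bp to 78.3% at 1000 to under 1500 bp and 88.8% at 1500 to under 2000 bp, with 84.9% above that. Coverage is a share of the induced width, and picking sites for a large induced width favours a low share, so nothing is read from its fall. Among the wide peaks, width and coverage hardly went together (Spearman rho -0.057, over 1106 sites).

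**Figure D2:**
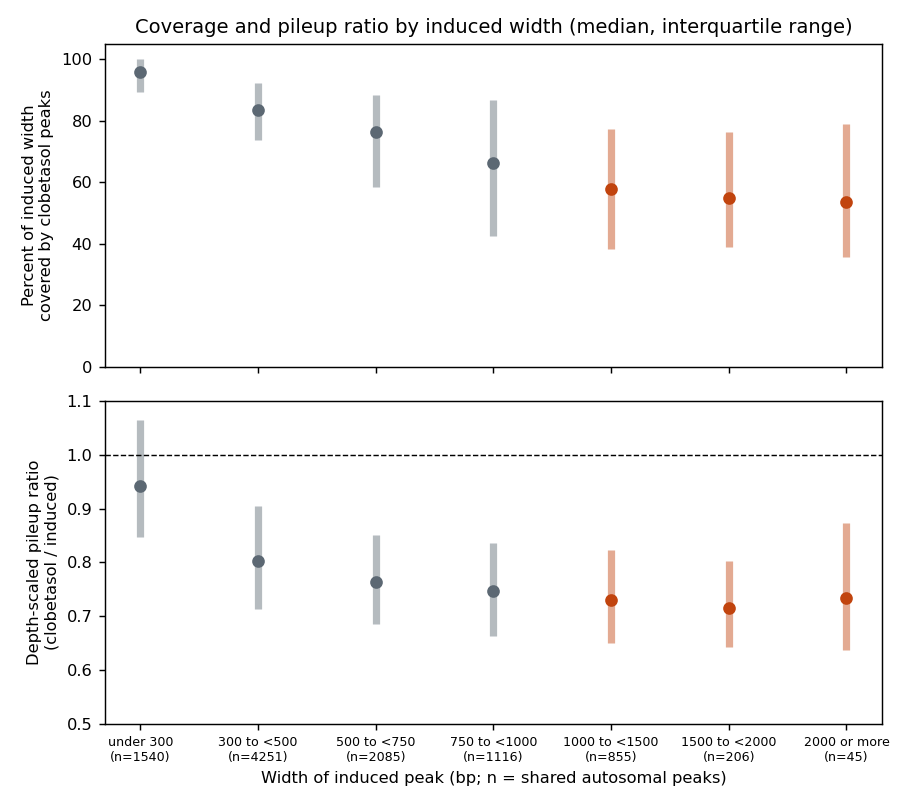
Median (point) and interquartile range (bar) of the percent of the induced width covered by clobetasol peaks (top) and of the depth-scaled pileup ratio (bottom), by induced width in bp, with classes of at least 1000 bp in red and n the shared autosomal peaks. Median coverage goes from 95.9% under 300 bp to 53.5% at 2000 bp or more, and the ratio from 0.942 to 0.733.

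At the 908 wide peaks with a single clobetasol peak, the uncovered flanks were sorted into the longer and the shorter. The longer uncovered flank had a median of 486.5 bp (206 to 706), and the shorter a median of 37 bp (2 to 108). The shorter flank was under 100 bp at 664 of the 908 (73.1%), while the longer one reached 500 bp at 443 (48.8%).

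The other 198 wide peaks (17.9%, 95% Wilson interval 15.8 to 20.3) were split with clobetasol, 195 into 2 peaks and 3 into 3. Splitting was seen at 36 of 8992 narrower shared peaks (0.400%), which have less room for separate peaks. It rose with width, from 14.0% at 1000 to under 1500 bp to 37.8% at 2000 bp or more. The gap between clobetasol peaks had a median of 292 bp (253 to 366), and the smallest was 224 bp. Split peaks had more fragments at the induced summit than unsplit ones, with medians of 108.5 and 92. At 189 of the 198, a clobetasol summit lay within 100 bp of the induced summit (95.5%).

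Where a clobetasol peak overlapped, as the rule required, it mostly held the induced summit. The induced summit lay inside a clobetasol peak at 1086 of 1106 wide peaks (98.2%, 95% Wilson interval 97.2 to 98.8), against 8973 of 8992 narrower ones (99.8%). The required overlap favours high shares in both sets. The 271 wide induced autosomal peaks without a clobetasol peak are not counted here. Over all wide peaks, the nearest clobetasol summit was a median of 14 bp away (6 to 36.8). The 20 wide peaks whose summit lay outside every clobetasol peak were modest sites, with a median of 60 fragments, a median fold of 3.29 and a median of 25.8% of their width covered. There the clobetasol summit used was 391 to 1268 bp from the induced one.

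Summit height was compared through the treated pileup, the number of fragments over the summit, which was solved from the deposited fold and −log10 p. The clobetasol pool was 1.21 times as deep as the induced pool, and its fragments were divided by this factor before the ratio to the induced pool was taken. The depth-scaled ratio at wide peaks had a median of 0.727 (interquartile range 0.648 to 0.823), against 0.805 (0.713 to 0.918) at narrower shared peaks. It was below 1 at 1076 of 1106 wide peaks (97.3%), against 8873 of all 10098 shared peaks (87.9%). After the control level was subtracted, the medians were 0.657 and 0.742.

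A ratio at or under 1/1.5, here called lower, was found at 327 of 1106 wide peaks (29.6%), where 16.6% of all shared autosomal peaks were lower. None of the 1106 was higher by 1.5 times, where 0.248% of all shared peaks were. The exact 95% binomial interval of the ratio lay below 1 at 605 wide peaks (54.7%), against 36.2% of all shared peaks, and above 1 at 1, against 0.545%. These intervals cover counting error only, and PCR copies of a fragment may be counted among them. A peak had to be wide in the induced pool to be chosen, which favours low ratios, and both lists share their control, so nothing is read from these counts about wide peaks as a kind.

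Which clobetasol peak is set against a split site mattered for single sites more than for the whole. Of the 198 split peaks, 79 had their most overlapping clobetasol peak at a secondary position, not at the induced summit. With the peak of nearest summit used in its place, the median ratio over all wide peaks was 0.735, and 291 were lower (26.3%), where 16.2% of all shared peaks were. The number with a ratio under 0.5 fell from 50 to 12. The change comes from sites where a secondary peak had been set against the main summit.

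**Figure D3:**
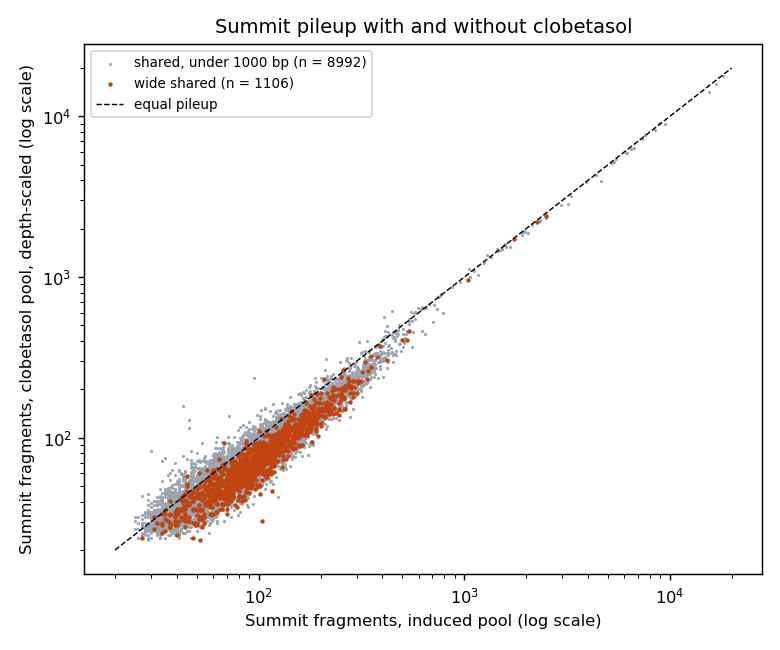
Fragments over the summit in the induced pool (x axis, log scale) against those over the nearest clobetasol summit divided by the depth factor of 1.21 (y axis, log scale), for 1106 wide (red) and 8992 narrower (grey) shared peaks. With this choice, 1075 wide peaks lie below the dashed line of equal pileup.

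The median ratio was lower at wide than at narrower shared peaks in each of 5 classes of induced summit fragments. The classes do not match the sets in fold, since the wide peaks had the higher median fold in each. It was 3.85 against 3.66 under 60 fragments and 4.61 against 3.99 at 160 or more. Picking by induced width favours low ratios here too, so nothing is read from the gap. Under 60 fragments the medians were 0.823 for 160 wide and 0.880 for 2460 narrower peaks. At 60 to under 90 they were 0.724 and 0.796, at 90 to under 120 they were 0.705 and 0.769, and at 120 to under 160 they were 0.732 and 0.765. At 160 or more they were 0.726 for 200 wide and 0.783 for 1540 narrower peaks. With only summits within 100 bp of each other, the gap was smallest at 120 to under 160, with medians of 0.748 and 0.767. Coverage rose with fragments at wide peaks, from a median of 42.0% under 60 to 67.5% at 160 or more. It moved less at narrower ones, from 82.9% to 87.9%.

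Wide peaks picked in the clobetasol list lay largely on the same sites, so they are not a separate check. That list had 266 autosomal peaks of at least 1000 bp among 11926 (2.23%), where the induced list had 1377 among 15750 (8.74%). The clobetasol pool was the deeper, and the cause of the difference in shares was not tested. Of the 266, 259 overlapped an induced peak and 234 overlapped one of the 1106 wide shared peaks. Among the 259, the induced peak was the wider at 197 (76.1%), and its median width was 1319 bp against 1169 bp. The median ratio was 0.747, against 0.795 at the 10066 narrower clobetasol peaks that overlapped an induced one. Induced peaks covered a median of 100% of these clobetasol peaks.

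The 10 widest sites differed in how much was covered, and the map of these sites sets both lists around the induced summit. Positions are in hg19, counted from 1. The widest, at chromosome 22, 20708622 to 20712757, spanned 4136 bp on a low summit of 53 fragments. With clobetasol, a peak of 1508 bp covered 36.5% of it, with 34 fragments (28.0 after scaling). That clobetasol peak had a −log10 q of 5.08, near the list's lowest. Only 245 bp further on, a peak at 20713003 to 20715916 spanned 2914 bp and was covered to 41.8%. Both summits held few fragments, 53 and 51, on folds of 5.36 and 2.56. The ratios, 0.528 (exact 95% interval 0.333 to 0.828) and 0.855 (0.571 to 1.28), had wide intervals.

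A pair on chromosome 15, 1561 bp apart, held contrasting peaks. The first, at 90349836 to 90353444, had 39 fragments over 3609 bp and stayed wide, with a clobetasol peak of 2316 bp. That clobetasol peak had 35 fragments and a −log10 q of 5.09, near the list's lowest. The second, at 90355006 to 90358463, had 194 fragments near one edge of 3458 bp. With clobetasol it broke into a peak of 385 bp at the summit and one of 581 bp located 2758 bp away, leaving 27.9% covered. At the summit, 194 fragments became 124, a ratio of 0.526 (0.417 to 0.663). The ratio of 0.208 listed for this site by the overlap rule belongs to the far peak.

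The strongest of the widest, at chromosome 17, 74378486 to 74381750, spanned 3265 bp with 218 fragments at its summit (fold 9.73). It kept a clobetasol peak of 2060 bp with a fold of 7.17 and 184 fragments (151 after scaling), a ratio of 0.695 (0.568 to 0.849), and a small peak of 302 bp located 1950 bp to the left. This site was also among the 5 of highest fold and had the most fragments of all wide peaks outside repeat-like sites. Repeat-like here means a level in the proliferating control above 5 times the list's minimum. The name stands for that level alone, since no sequence was checked and the control is itself EGR1 ChIP-seq. The level was passed at 255 of 1106 wide peaks (23.1%) and 2269 of 8992 narrower shared ones (25.2%). At chromosome 9, 131005027 to 131007728, a fold of 7.96 went with a split into peaks of 635 and 230 bp that covered 32.0%, and the summit ratio was 0.526 (0.383 to 0.718). At chromosome 7, 1154997 to 1157515, in contrast, clobetasol peaks of 1583 and 647 bp covered 88.3%, and 59 fragments at the summit became 70 in the deeper pool, a ratio of 0.977 (0.681 to 1.41).

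Of the remaining 3, the site at chromosome 22, 33198083 to 33201485, was the least covered of the 10, and its induced summit lay outside any clobetasol peak: its single clobetasol peak of 462 bp covered 13.6% of 3403 bp and had its summit 650 bp away. The site at chromosome 20, 31170654 to 31173493, kept 1354 bp of 2840 bp, a stretch that held the summit, with a ratio of 0.522 (0.378 to 0.718). At chromosome 12, 111842597 to 111845117, peaks of 551 and 350 bp were left. The first, at the summit, had 61 fragments (50.2 after scaling) against 83, a ratio of 0.605 (0.427 to 0.852). The second had its summit 908 bp away, with 63 fragments (51.9 after scaling). Of the 10, 5 were split, 7 were covered to under 50%, and all 10 had a ratio below 1 at the nearest summit. Over all 1106 wide peaks these shares were 17.9%, 40.3% and 97.2%. Picking by induced width favours low coverage and low ratios, so nothing is read from these counts.

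**Figure D4:**
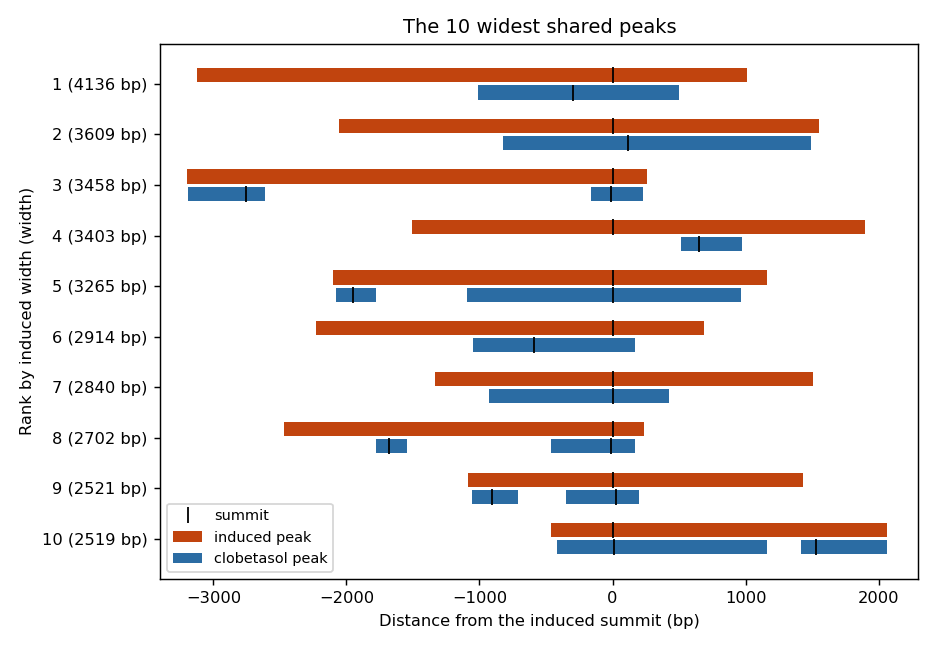
The 10 widest shared peaks, each as the induced peak (red) above the clobetasol peaks that overlap it (blue), drawn to scale by distance in bp from the induced summit, with summits as black ticks. Coverage ran from 13.6% at rank 4 to 88.3% at rank 10, and ranks 3, 5, 8, 9 and 10 were split.

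Outside repeat-like sites, a wide peak at chromosome 22, 38301686 to 38302958, had the highest fold (11.7) on 127 fragments. With clobetasol the fold became 8.19 on 106 fragments (87.3 after scaling), and the stretch shrank from 1273 to 516 bp. On chromosome 11, the site at 64983203 to 64984826 had a fold of 10.2 and stayed wide at 1415 bp, while the site at 75443916 to 75445110 had a fold of 9.83 and shrank from 1195 to 458 bp. Their ratios, 0.688 (0.552 to 0.858) and 0.628 (0.460 to 0.853), overlapped in their intervals, and their difference was not tested. All 5 sites of highest fold had intervals below 1, a direction that picking by induced fold favours.

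The wide peaks with most fragments outside repeat-like sites all had a ratio below 1. After the chromosome 17 site already given, they were at chromosome 9, 115095182 to 115096281 (211 fragments), chromosome 2, 174828221 to 174829829 (205), chromosome 1, 9352295 to 9353981 (205), and chromosome 17, 882583 to 883617 (202). With clobetasol they held 163, 166, 177 and 143 fragments in the deeper pool. The depth-scaled ratios were 0.636 (0.515 to 0.784), 0.667 (0.540 to 0.822), 0.711 (0.578 to 0.873) and 0.583 (0.467 to 0.726). Their intervals overlapped, and the differences between them were not tested. Picking by induced fragments favours ratios below 1, which 97.3% of all wide peaks and 87.9% of all shared peaks had. Coverage ran from 54.3% at the chromosome 1 site to 85.8% at the chromosome 2 site.

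The lowest ratio at a summit that matched between the lists was at chromosome 1, 224803377 to 224805464. Its 104 fragments went to 37 (30.5 after scaling), a ratio of 0.293 (0.196 to 0.430), and 2088 bp shrank to 526 bp. It was among the 5 lowest ratios by the overlap rule outside repeat-like sites. The other 4, on chromosomes 15, 6, 9 and 7, were split sites whose main summit was less reduced. Over all wide peaks, repeat-like ones included, the lowest ratio by that rule was 0.196. At chromosome 6, 150183986 to 150185739, the ratio was 0.234 for the peak 1386 bp away but 0.736 (0.574 to 0.942) for that at the summit. At chromosome 9, 91003143 to 91004228, these were 0.250 and 0.578 (0.460 to 0.724), and at chromosome 7, 48127868 to 48129963, they were 0.276 and 0.615 (0.485 to 0.778).

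Among sites with summits within 100 bp, ranked after the values were seen, the next lowest ratios were 0.443 at chromosome 7, 149416768 to 149417840, and 0.475 at chromosome 18, 33877362 to 33878711. The first had 52 fragments at the lowest control level of the list and 28 with clobetasol. Both kept under 50% of their width, 41.8% and 25.4%. Height and extent could also part: the site at chromosome 15, 40732841 to 40734703, had a ratio of 0.479 but kept 67.4% of its width. Its clobetasol peak had a −log10 q of 5.12, near the list's lowest.

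At the other end, the only wide peak with an interval above 1 was at chromosome 16, 86611615 to 86612837, where 68 fragments went to 113 (93.0 after scaling), a ratio of 1.37 (1.00372 to 1.88). It kept 996 of 1223 bp in the clobetasol list. The next 4 by ratio outside repeat-like sites, on chromosomes 19, 1, 19 and 20, had ratios from 1.152 to 1.28, all with intervals that hold 1. Coverage varied among these sites, from 81.4% at the chromosome 16 site to 22.9%, 45.1%, 92.1% and 34.2% at the next 4, in order of ratio. The least covered, at chromosome 19, 15305821 to 15306959, had a ratio of 1.28 (0.868 to 1.91). Over all wide peaks, ratio and coverage hardly went together (Spearman rho 0.026), where rho was 0.379 over the narrower shared peaks.

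Sites split into 3 clobetasol peaks were at chromosome 6, 42713772 to 42715572, chromosome 1, 154192554 to 154194222, and chromosome 1, 245026193 to 245028097. The heights of the separate peaks were alike at the first, with 54, 56 and 52 fragments, and at the last, with 67, 64 and 62. At the other, on chromosome 1, they were 40, 72 and 66. At chromosome 1, 1242681 to 1244304, a split into 447 bp at the summit and 1032 bp beside it left 85.9% covered, with a summit ratio of 0.727 (0.565 to 0.935).

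Some wide sites kept their full extent, as a look at the widest clobetasol peaks, added after the values were seen, showed. At chromosome 1, 150540698 to 150543076, an induced peak of 2379 bp lay wholly inside a clobetasol peak of 5552 bp. Their summits were 760 bp apart, with 49 and 52 fragments (42.8 after scaling), a ratio of 0.874 (0.580 to 1.32). At chromosome 5, 137805024 to 137807266, clobetasol peaks covered 94.5% of 2243 bp with a ratio of 0.891 (0.640 to 1.24). At chromosome 4, 39814237 to 39816594, 96.4% was covered, with the summits 1375 bp apart, and at chromosome 13, 113761491 to 113763623, 97.7% was covered with a ratio of 0.637 (0.428 to 0.944).

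Wide peaks were spread over all 22 autosomes. They made up 8.56% of the shared peaks on chromosome 15 and 13.8% on chromosome 18, the lowest and highest shares, and the 95% Wilson interval held the overall 11.0% on all 22. The median ratio ran from 0.677 on chromosome 20 to 0.807 on chromosome 10, and the median coverage from 47.4% to 66.2%. Another induced peak lay within 5 kb of 283 of 1106 wide peaks (25.6%) and of 2433 of 8992 narrower ones (27.1%).

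**Figure D5:**
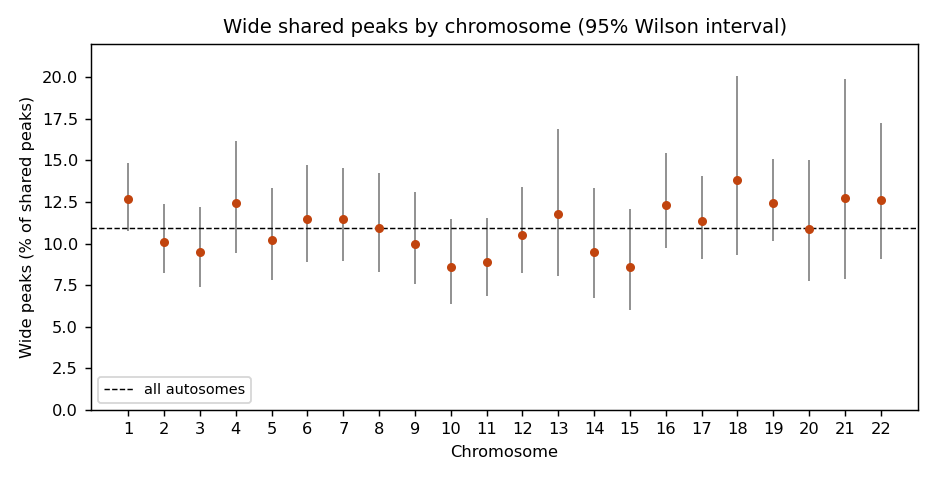
Wide shared peaks as a percent of the shared peaks of each autosome (points) with 95% Wilson intervals (bars), which cover counting error only, and the share over all autosomes (dashed line, 11.0%). Every interval holds the dashed line.

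A few wide peaks lay next to each other, with 45 of the 1106 in 24 adjacent pairs at most 10 kb apart. The longest run, picked out after the values were seen, was on chromosome 19, where 5 wide peaks lay between 1235965 and 1270159 with gaps of 1784 to 9932 bp. Their ratios were 0.689, 0.805, 0.654, 0.726 and 0.714, and all 5 had folds of 4.54 to 6.46. On chromosome 5, peaks at 137801072 to 137802217 and at 137805024 to 137807266 lay 2806 bp apart, with folds of 5.57 and 4.58 and ratios of 0.718 and 0.891.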

How the data were processed

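EGR1 ChIP-seq was made from 9 libraries in 3 groups of 3. Per the submitters' processing notes, reads were handled with MACS2 2.1.1.20160309, SAMtools 1.3.1, BWA, cutadapt 1.15, bcl2fastq and FastQC 0.11.5 on hg19. The authors called peaks on pooled replicates against pooled proliferating libraries, per the names of the peaks. The deposited fold is a ratio of treated to control pileup at the summit. The summit's −log10 p and −log10 q were also deposited. The deposited score repeats the −log10 q, multiplied by 10 and cut to a whole number. For caller settings and library depths the sources used here give nothing.

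Fragments and control levels were solved from fold and −log10 p with Python 3.11.15, numpy 2.4.6, pandas 2.3.3 and scipy 1.17.1, and the solver was tested on simulated data. Treated pileups came within 0.05 of a whole number at 99.6% of induced and 99.5% of clobetasol peaks. Control levels fell on steps of 0.552 and 0.670 fragments, whose ratio gave the depth factor. The lowest control levels were 6.48 and 7.91 fragments. The precision of a value follows from its fragments. Intervals are at 95%, Wilson for shares and exact binomial for ratios.

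The wide peaks and the rules were chosen with earlier results of these data known. Named sites were, among the wide peaks, the 10 widest, the 5 of highest fold, most fragments, lowest and highest ratio (each with a control level at most 5 times the lowest) and the 5 with most clobetasol peaks, or 30 sites, of which the report describes those its results turn on. A further 3 groups were added after their values were seen. As an hg19 genome and annotation were not used here, no gene, promoter, motif or sequence is given for a site.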

Additional observations from a re-analysis of the deposited data

Results flagged for a closer look

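The rule kept to chromosomes 1 to 22, and a signal was also seen outside them: 37 induced peaks of at least 1000 bp lay on other chromosomes and contigs, of which 23 overlapped a clobetasol peak (62.2%, 95% Wilson interval 46.1 to 75.9). On chromosome X there were 20, of which 12 overlapped a clobetasol peak, with a median ratio of 0.777 and a median coverage of 61.4%. The site of highest fold among these, at chromosome X, 153617378 to 153618657, had a fold of 6.72 and 65 fragments, and its ratio was 0.9498. At the 15 on contigs the control level over the list's minimum had a median of 53.8, against 3.32 for the wide peaks on autosomes.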

How the results depend on the processing

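Of 23 alternatives over 5 results, 6 of them added after seeing the data, 10 stayed close to the value reported and 13 moved, beyond 1.5 times for a count or beyond a 95% interval over sites for a share or median. The number of wide shared peaks was 1942 with a minimum of 800 bp, 631 with 1200 bp and 259 when width was taken in the clobetasol list. The share of wide induced peaks with a clobetasol peak, 80.3%, was 60.8% with a −log10 q of at least 10 in the clobetasol list, and 76.6% and 84.5% with minimums of 800 and 1200 bp. The median fold was 4.39 without repeat-like sites. The median ratio, 0.727, was 0.657 on the excess over the control level, 0.747 for width taken in the clobetasol list and 0.739 where the induced summit lay inside the clobetasol peak used. Median coverage, 57.5%, was 42.6% with that bound on q, 54.7% without repeat-like sites and 100% for wide clobetasol peaks covered by induced ones. The median ratio stayed below 1 under each alternative run, but all used the same pools, and over all shared peaks it was 0.796. The cause of these moves was not tested. The planned shares with a promoter or a motif were not run, since no hg19 genome or annotation was used here. No paired analysis was possible because the lists hold pools and no value per replicate, and for the same reason no replicate could be left out. Depth limits single sites: at the median ratio, the exact interval lies below 1 from 91 induced fragments upward, and 503 of the 1106 wide peaks had fewer.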

Other observations

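The 271 wide induced peaks on autosomes without a clobetasol peak were weaker than the wide shared ones. They had a median of 47 fragments and a median fold of 3.48, and their control level was a median of 1.87 times the lowest of the list, against 3.32 times. Their width was close, with a median of 1153 bp. Among induced peaks whose −log10 q reached 20, 779 of 802 wide peaks had a clobetasol peak (97.1%, 95% Wilson interval 95.7 to 98.1), and 4879 of 5180 narrower ones did (94.2%, 93.5 to 94.8).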
